A study of Homo sapiens with 3 samples.

Results

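The plasma proteins of the acute-phase response, the complement cascade and blood coagulation were followed through 47 genes in A549 cells, an established line from a human lung adenocarcinoma (LUAD). The 47 genes were chosen as a fixed list of symbols, and their probes were found through the RefSeq accession of each probe. All 47 were on the array, with 63 probes, out of 22439 genes with a RefSeq symbol. By role, the list held 16 acute-phase proteins, the 3 fibrinogen chains, 6 protease inhibitors, 11 complement components and proteases, 5 complement regulators and 6 coagulation factors. Total RNA of each condition was measured on 1 array, with 3 one-colour Agilent arrays in all. The mock cells received the transfection reagent (RNAiMAX) alone, the *miR-139-5p* cells the miRNA from the guide strand of the *miR-139* precursor, and the *miR-139-3p* cells that from its passenger strand, at the same concentration by the study's methods. All 3 groups therefore shared the line, the medium and the reagent. No array of cells given a control miRNA was analysed here. For the arrays, the time from transfection to harvest is not given in the sources used here. The study searched these arrays for genes lowered by *miR-139-3p*.

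Each condition had a single array. The differences below therefore have no replicate check and no p-value, and their precision is limited by the number of arrays. Slide 1 held the arrays of mock and *miR-139-5p*, and slide 2 that of *miR-139-3p*, so slide and transfection cannot be told apart for *miR-139-3p*. Between 48.1% and 53.1% of the 60901 spots of an array were well above background, and 0 were saturated. Over the probes spotted several times with signals over 100, the median SD between spots of a probe was 0.05 to 0.06 on the log2 scale, and it was 0.21 to 0.22 for probes with signals under 10. These values do not include the spread between cultures. Of 10 epithelial and A549 markers (among them *KRT8*, *KRT18*, *EPCAM*, *AKR1B10* and *ALDH1A1*), all 10 were well above background on every array. Over all genes, 66.6% were detected in mock, 64.7% after *miR-139-5p* and 68.5% after *miR-139-3p*, so detection alone does not identify the line. The levels of the 10 markers were not equal, since 5 were lower and 1 was higher than mock with *miR-139-3p*, beside 27.9% and 26.5% of all genes. *AKR1B10* lay at -1.43 and *KRT7* at -1.10 on the log2 scale. After *miR-139-5p* transfection, 4 lay lower and 0 higher, beside 12.3% and 10.7% of all genes. The summed signal of the 10 markers, before scaling, was 352146 in mock, 299341 after *miR-139-5p* and 179129 after *miR-139-3p*. The sum follows the brightest probes. Those of *AKR1B10* had 53389 and 49243 in mock and 18509 and 14557 after *miR-139-3p*. *EPCAM*, *CDH1* and *KRT19* lay at 0.97, 0.36 and 0.18 with *miR-139-3p*. Of the 6 leukocyte markers found on the array, 3 were well above background in mock (*PTPRC*, *ITGAM* and *CD14*), 3 after *miR-139-5p* and 4 after *miR-139-3p*. Of the 3 measured on both arrays, 2 were higher after *miR-139-3p* transfection (*PTPRC*, at 1.26, and *ITGAM*) and *CD14* was lower, at -1.98. These counts stand beside 26.5% higher and 27.9% lower of all genes. Of 5 endothelial markers, 2 had a value and both were higher after *miR-139-3p* transfection (*VWF* at 1.05 and *CDH5* at 1.00), beside 26.5% of all genes. Of 5 fibroblast markers, 2 had a value. *COL1A1* lay at -0.61 after *miR-139-3p* and 1.41 after *miR-139-5p*, and *PDGFRB* at 0.94 and 0.06. The part of these markers in the results was not tested.

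Acute-phase proteins are secreted into plasma, chiefly by hepatocytes, and their level changes when interleukin-6, interleukin-1 and related cytokines act through STAT3, C/EBP and NF-kB factors. Complement is a protease cascade that converges on the cleavage of C3 and then C5 and ends in a membrane pore, held in check on host cells by CD46, CD55 and CD59. Coagulation is a second protease cascade, in which thrombin, the product of *F2*, cleaves fibrinogen to fibrin. Epithelial cells of the lung also make many of these proteins, and A549 cells are known to produce several of them, fibrinogen and C3 included.

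The mature miRNAs are shown because they are the agents compared. They come from opposite arms of the same hairpin (RefSeq, GRCh38.p14, minus strand of chromosome 11, at chr11:72615066-72615088 for *miR-139-3p* and chr11:72615102-72615124 for *miR-139-5p*), and the capitals mark the seed, bases 2 to 8 counted from the 5′ end, by which a miRNA pairs with its target transcripts.
hsa-miR-139-3p: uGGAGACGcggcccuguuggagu
hsa-miR-139-5p: uCUACAGUgcacgugucuccagu
The seeds differ, so the 2 miRNAs belong to different seed families. Sites for these seeds in the transcripts of the 47 genes were not analysed here.

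Of the 47 genes, 35 had a probe well above background on at least 1 array and 26 on all 3. In mock, 30 were detected in this way (63.8%), 28 were in *miR-139-5p* cells (59.6%), and 32 in *miR-139-3p* cells (68.1%). Over all genes the shares were 66.6%, 64.7% and 68.5%. The 12 genes that were not well above background on any array were *ALB* (albumin), *CRP* (C-reactive protein), *SAA2* and *SAA4* (serum amyloid A proteins), *LBP* (the lipopolysaccharide-binding protein), *A2M* (alpha-2-macroglobulin), *C4A*, *C6*, *C4BPB*, *F5*, *KNG1* and *SERPIND1*. These 12 have only an upper bound on each array and no difference is given for them. Genes with near-identical copies are uncertain, because a probe can bind both transcripts, and this holds for *SAA1* and *SAA2*, *ORM1* and *ORM2*, *C4A* and *C4B*, and *HP* and its paralog *HPR*.

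Differences are given on the log2 scale. The log2 of the processed signal, which is the background-subtracted intensity of a spot, was scaled by subtracting the log2 of the 75th percentile of the array. A gene's difference is the mean over its probes that were well above background on both arrays, and a gene is called higher or lower past 0.5. Where a probe was well above background on 1 array only, the dim array was given the probe's own signal or the lowest signal well above background there, whichever was higher, and the value is a bound, written "at least". Probes of the same gene differed by a median SD of 0.28 in the comparison of *miR-139-3p* with mock and 0.15 in that of *miR-139-5p* with mock, which is the spread that stands beside these differences. In RNA from whole cultures, fewer cells that express a gene and less RNA per cell cannot be told apart.

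After *miR-139-3p* transfection, 18 of the 34 members with a value were lower than in mock and 11 were higher, 2 and 5 of them as bounds. Among all 15572 genes with a value, 27.9% were lower and 26.5% higher, against 52.9% and 32.4% of the members. The share of members higher was 5.88%, beside 10.1% of all genes, with the normexp background correction, described below. It was 19.2%, beside 22.9%, with probes well above background on all 3 arrays, and 23.5%, beside 21.8%, with quantile normalization. The shares lower in these 3 settings were 32.4%, 61.5% and 55.9%, beside 19.0%, 29.8% and 30.7% of all genes. The median over the 27 members measured on both arrays was -0.74, with quartiles of -1.48 and 0.26, beside -0.09 over all 14376 measured genes. Among the members measured on both arrays, those lower with *miR-139-3p* were led by *LCN2*, *SLPI*, *APOH*, *FGA*, *FGB* and *F2*, and those higher by *C8G* and *CD59*. After *miR-139-5p* transfection, 9 of the 30 members with a value were lower and 8 higher, 30% and 26.7%, beside 12.3% and 10.7% of all 15018 genes with a value. The median over 28 measured members was 0.04, and that of all genes 0.00.

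**Figure D1:**
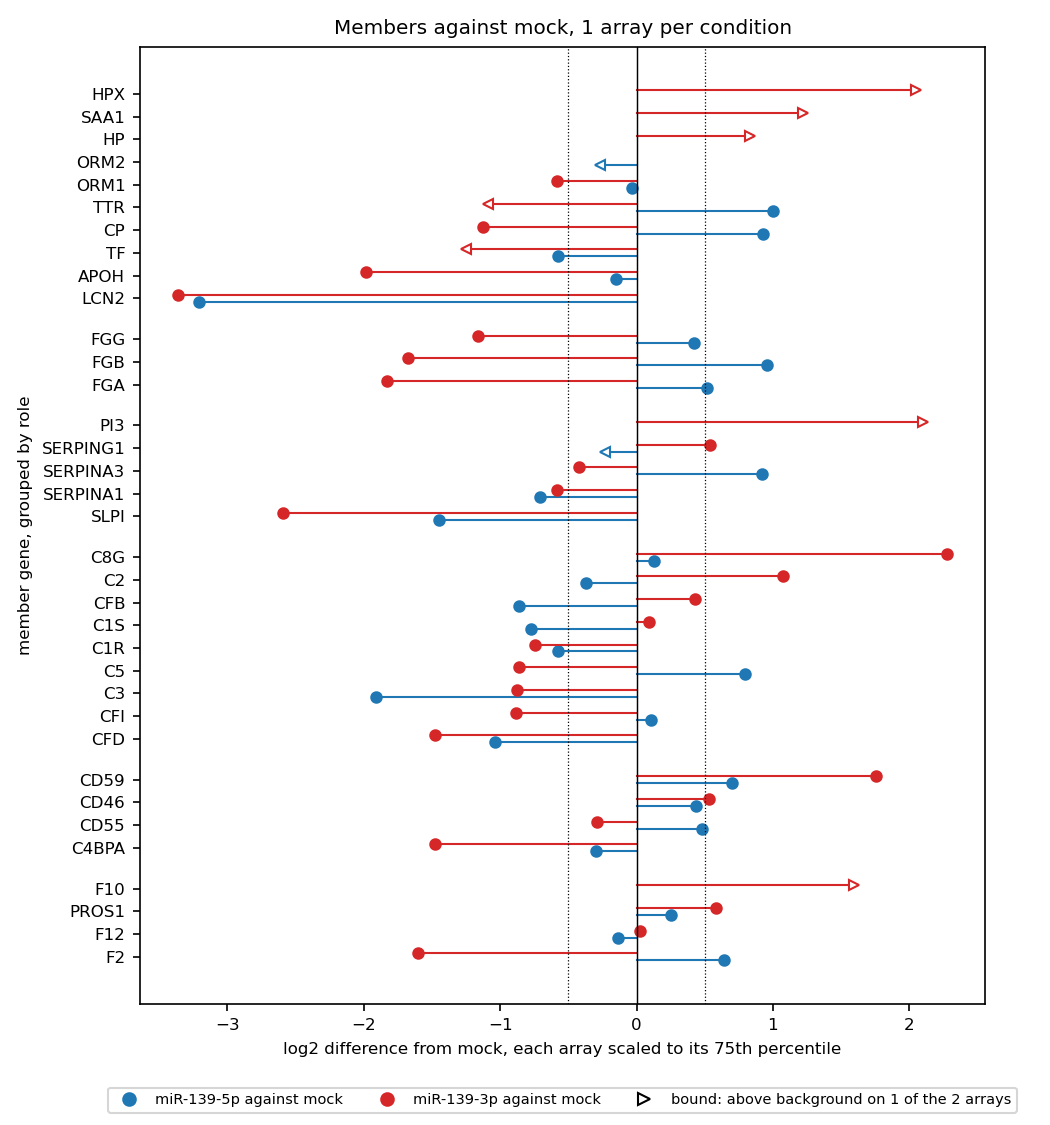
Log2 difference from mock (x axis, each array scaled to its 75th percentile) of the members with a value, grouped by role. Red marks *miR-139-3p*, blue *miR-139-5p*, open arrows mark bounds and dotted lines the threshold of 0.5. *LCN2* lies farthest left for both miRNAs, and the fibrinogen chains lie left of 0 for *miR-139-3p* and right of 0 for *miR-139-5p*.

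*LCN2*, a siderophore-binding protein of innate defence that starves bacteria of iron, had signals of 113 in mock, 11.6 after *miR-139-5p* and 9.50 after *miR-139-3p*. It was thus bright in mock only, and both low values were still flagged well above background. The lowest signal flagged so was 5.12 and 4.32 on those arrays. The log2 difference from mock was -3.36 with *miR-139-3p* against -3.21 with *miR-139-5p*, which leaves 9.75% and 10.8% of the mock level after scaling. *LCN2* was lowest of the measured members in both. Among all genes, 10 of 14376 were lower with *miR-139-3p* and 0 of 14311 with *miR-139-5p*. Between the miRNA arrays it differed by -0.15, which is within 0.5, but by -0.66 with quantile normalization and -0.67 in the deposited log2 values, both past it. *LCN2* has 1 probe, so the 2 differences from mock share the same mock spot. With the normexp background correction, described below with the dim members, they were -1.37 and -1.34.

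*CP*, ceruloplasmin, the copper-carrying ferroxidase of plasma, followed another course. Its brighter probe had signals of 49.3 in mock, 75.9 after *miR-139-5p* and 20.7 after *miR-139-3p*. The second probe had 27.8, 58.7 and 10.5. In both probes the *miR-139-5p* array was highest and the *miR-139-3p* array lowest. The mean log2 difference from mock was -1.12 with *miR-139-3p* (SD 0.11 over 2 probes) and 0.92 with *miR-139-5p* (SD 0.32), and it was -2.05 between the miRNA arrays (SD 0.43). *CP* is among the genes that the study picked from these arrays for a low value with *miR-139-3p*, so that difference is a description only. With normexp it lay inside the threshold in both comparisons with mock, at -0.26 and 0.43. *CP* was not extreme among the members: besides *LCN2*, 8 other measured members lay lower with *miR-139-3p*, and 2 lay higher with *miR-139-5p*.

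**Figure D2:**
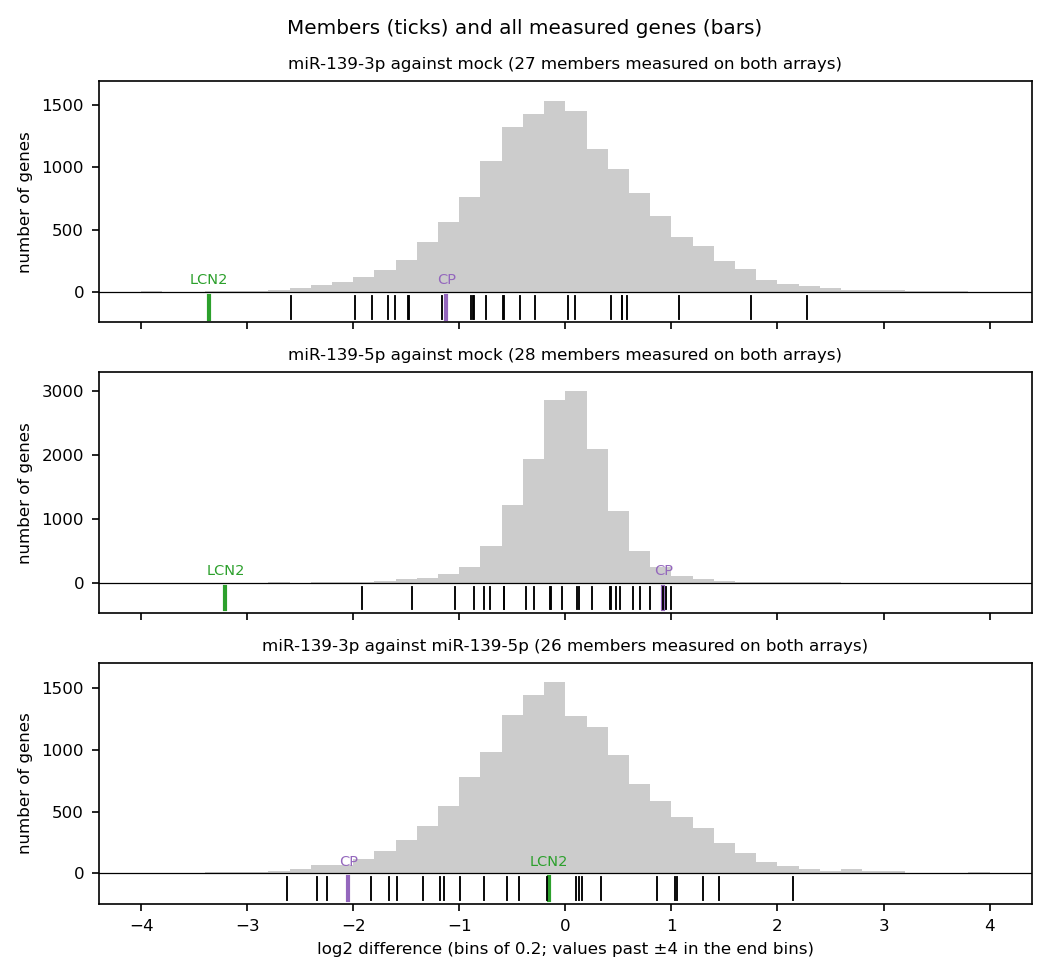
Number of genes (y axis) by log2 difference (x axis, bins of 0.2) in the 3 comparisons, with 1 tick under the axis for each member measured on both arrays, *LCN2* in green and *CP* in purple. *LCN2* sits at the far left of both comparisons with mock and near 0 between the miRNA arrays, where *CP* lies at -2.05.

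Set against these 2 genes, the other members divided. A pattern like that of *CP*, lower than mock with *miR-139-3p* and higher with *miR-139-5p*, was seen in 6 of the 29 members with a value in both comparisons (20.7%), namely *CP*, *FGA*, *FGB*, *F2*, *C5* and *TTR*. Over all genes with both values it was seen in 292 of 14707 (1.99%). With normexp, only *FGB* and *C5* of these 6 stayed past the threshold in both comparisons, since *CP*, *F2*, *FGA* and *TTR* then lay at 0.43, 0.40, 0.29 and 0.24 after *miR-139-5p*. A pattern like that of *LCN2*, lower with both, was seen in 7 members (24.1%), namely *LCN2*, *SLPI*, *C3*, *CFD*, *C1R*, *SERPINA1* and *TF*, and in 758 of all genes (5.15%). *SERPINA1* and *TF* lay inside the threshold in both comparisons with normexp, and *C1R* and *TF* did so after *miR-139-5p*, both at -0.45, with spike-in scaling. Both comparisons share the mock array, so these shares are descriptions and not evidence that the miRNAs act alike or apart. Without *LCN2* and *CP*, the median over the measured members was -0.58 with *miR-139-3p* against 0.04 with *miR-139-5p*.

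The fibrinogen chains were lower with *miR-139-3p* in each of their 5 probes. *FGA*, *FGB* and *FGG* encode the alpha, beta and gamma chains, which are assembled into 1 protein, and the genes lie next to each other on chromosome 4 in the order *FGB*, *FGA*, *FGG*. *FGB* had signals of 296 in mock, 545 after *miR-139-5p* and 80.4 after *miR-139-3p*. *FGG* had 882, 1121 and 341. The brightest of 3 *FGA* probes had 263, 307 and 58.9, and the other probes had 63.7, 80.2 and 13.5, and 37.9, 64.8 and 11.6. Each of the 5 probes was highest on the *miR-139-5p* array and lowest on the *miR-139-3p* array. The log2 difference of *miR-139-3p* from mock was -1.67 for *FGB*, -1.16 for *FGG* and -1.83 for *FGA* (SD 0.29 over 3 probes). After *miR-139-5p* transfection it was 0.95 for *FGB*, 0.52 for *FGA* (SD 0.29) and 0.42 for *FGG*, so *FGA* lay just past the threshold and *FGG* just inside it. *FGA* lay at or inside 0.5 in 6 of the other settings with this threshold, at 0.29 for its brightest probe alone. Between the miRNA arrays, which leaves out the mock array, the differences were -2.63 for *FGB*, -2.34 for *FGA* and -1.58 for *FGG*.

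*F2*, prothrombin, was measured by 1 probe with 10 spots per array. The mean signal was 95.5 in mock over the 9 spots kept, with spots between 88.2 and 98.7. It was 141 with *miR-139-5p* (127 to 152) and 27.2 with *miR-139-3p* (23.3 to 30.7). The log2 differences from mock were -1.60 with *miR-139-3p* against 0.64 with *miR-139-5p*. The SD between spots was 0.05 in mock, 0.08 after *miR-139-5p* and 0.12 after *miR-139-3p*, which is technical spread within an array and not error between cultures.

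**Figure D3:**
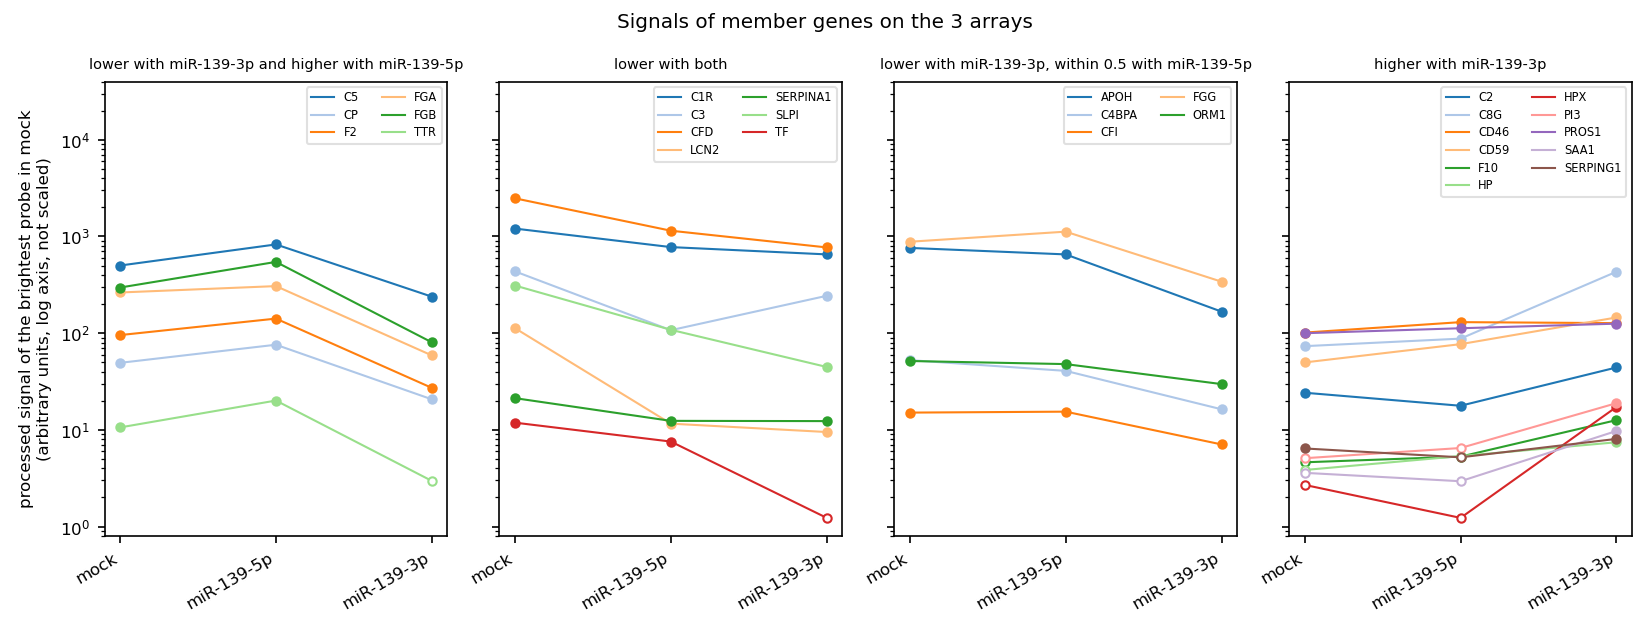
Processed signal (y axis, log axis, before scaling) of each member's brightest probe in mock, across the 3 arrays (x axis), in 4 panels by the calls against mock. Filled points were well above background and open points were not, and among the members higher with *miR-139-3p* the 5 lines that start at open points have signals between 2.70 and 5.09 in mock.

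Among the other acute-phase proteins, *APOH* and the carriers *TTR* and *TF* were lower with *miR-139-3p*, and the scavengers of haem and haemoglobin were seen on that array alone. *APOH*, beta-2-glycoprotein I, a phospholipid-binding plasma protein, had signals of 761 in mock, 652 after *miR-139-5p* and 167 after *miR-139-3p*. Its log2 difference from mock was -1.98 with *miR-139-3p* against -0.15 with *miR-139-5p*. *TTR*, transthyretin, which carries thyroxine and retinol-binding protein, had 10.6, 20.1 and 2.97, and the last was not well above background. It was at least 2.12-fold lower with *miR-139-3p* than in mock and 1.00 higher on the log2 scale with *miR-139-5p*, but both values lay inside the threshold with normexp, at -0.06 and 0.24. *TF*, transferrin, the iron carrier, had 11.9, 7.57 and 1.23, was at least 2.38-fold lower with *miR-139-3p* and had a difference of -0.58 with *miR-139-5p*. *ORM1*, the acid glycoprotein, lay close to the threshold at -0.58 with *miR-139-3p* against -0.03 with *miR-139-5p*. Its neighbour *ORM2* was well above background in mock only, with a signal of 6.48, and had no usable spot on the *miR-139-3p* array.

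*HPX* (haemopexin, which binds haem), *HP* (haptoglobin, which binds haemoglobin), *SAA1* (serum amyloid A), *PI3* (elafin, an elastase inhibitor) and *F10* (coagulation factor X) were detected above background after *miR-139-3p* transfection alone. Their signals there were 17.2, 7.44, 9.74, 18.9 and 12.6. In mock they were 2.70, 3.85, 3.59, 5.09 and 4.62, all read as not well above background. They were at least 4.13-fold, 1.78-fold, 2.33-fold, 4.28-fold and 3.02-fold higher with *miR-139-3p* than in mock. The mock signal of *PI3*, 5.09, lay above the lowest one flagged well above background there, 4.82, so its value rests on its own mock signal. *HP* lay inside the threshold at 0.27 on the log2 scale with quantile normalization and at 0.26 in the deposited log2 values. With normexp all 5 lay inside it. These 5 genes make up 14.7% of the members with a value, and they have one only because the *miR-139-3p* array passed the detection filter. Their share is therefore a description and no support for a rise of the members. Over all genes with a value, 5.66% were seen with *miR-139-3p* and not in mock, and 2.02% in mock and not with *miR-139-3p*. Of 10 hepatocyte markers, 1 was well above background in mock (*AHSG*), 2 after *miR-139-5p* and 5 after *miR-139-3p*. Their summed signal before scaling was 36.8, 30.2 and 51.3. After *miR-139-3p* transfection 4 of the 5 were higher than mock, beside 26.5% of all genes. All 4 were bounds, seen on that array and not in mock, namely *CYP3A4*, *SLCO1B1*, *TAT* and *SLC10A1* at 1.56, 1.16, 1.12 and 0.78 or more. *AHSG* was lower with each miRNA, at -1.26 after *miR-139-3p* and -1.05 after *miR-139-5p*, while *CYP2E1*, *CYP2C8*, *APOA5* and *APOC3* were not well above background on any array. The part of these dim signals, of the slide and of other cell types in the result was not tested.

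The protease inhibitors did not move together. *SLPI*, the secretory leukocyte protease inhibitor of airway mucus, had signals of 311 in mock, 108 after *miR-139-5p* and 44.7 after *miR-139-3p*. The mock array was highest and the *miR-139-3p* array lowest, with log2 differences from mock of -1.45 and -2.59, and 58 of all 14376 measured genes lay lower with *miR-139-3p*. *SERPINA1*, alpha-1-antitrypsin, which blocks neutrophil elastase, was dim at 21.3, 12.4 and 12.3, with differences of -0.71 with *miR-139-5p* against -0.58 with *miR-139-3p*. *SERPINA3*, alpha-1-antichymotrypsin, was higher with *miR-139-5p* at 0.92 and at -0.42 with *miR-139-3p*. Its 3 probes agreed on direction but not on size, with an SD of 0.61 and 0.33. *SERPING1*, the C1 inhibitor, rested on 1 of 3 probes, with signals of 6.42, 5.20 and 8.06, and its difference of 0.54 with *miR-139-3p* became -0.10 when the probes at background were included. This difference was also inside the threshold at 0.007 with quantile normalization, 0 in the deposited log2 values, 0.33 without scaling and 0.19 with normexp.

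**Figure D4:**
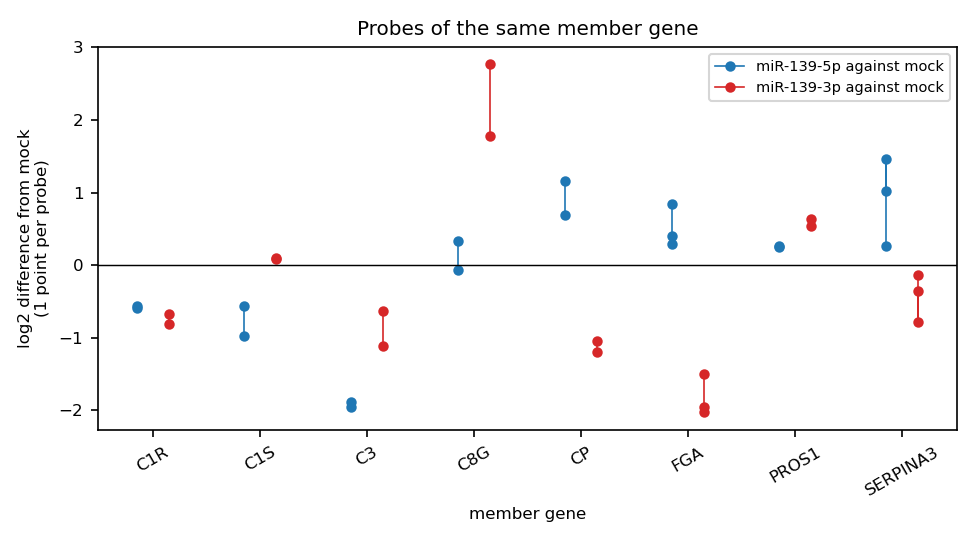
Log2 difference from mock (y axis) of each probe of the 8 members with at least 2 probes well above background on all 3 arrays (x axis), red for *miR-139-3p* and blue for *miR-139-5p*. Probes of *CP*, *FGA*, *C3*, *C1R*, *C1S*, *PROS1* and *SERPINA3* keep the same sign for each miRNA, and the blue points of *C8G* lie on both sides of 0.

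In complement, 5 of the 9 components and proteases with a value were lower than mock with *miR-139-3p* and 2 were higher, beside 27.9% and 26.5% of all genes. After *miR-139-5p* transfection 5 lay lower and 1 higher, beside 12.3% and 10.7%. Of these 5, *CFB* and *C1S* lay inside the threshold with normexp, at -0.03 and -0.34, and *C1R* with spike-in scaling. After *miR-139-3p* transfection *CFI* and *C2* lay inside it with normexp, at -0.06 and 0.49. *C3*, the central component, had signals of 435 in mock, 107 after *miR-139-5p* and 243 after *miR-139-3p* in its brighter probe, and 85.7, 22.1 and 34.2 in the other. Here the *miR-139-5p* array was the lowest, with a difference from mock of -1.91 (SD 0.05 over 2 probes), and 17 of 14311 measured genes lay lower. With *miR-139-3p* the difference was -0.87 (SD 0.34). *C5*, from which the pore begins to form, had 500, 827 and 238, with differences of 0.80 with *miR-139-5p* against -0.86 with *miR-139-3p*. The members that C3 and C5 convertases act on thus differed in the sign of their *miR-139-5p* value.

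Among the proteases, *CFD*, factor D, which activates the alternative pathway, had signals of 2479 in mock, 1146 after *miR-139-5p* and 770 after *miR-139-3p*. Its differences from mock were -1.04 with *miR-139-5p* against -1.48 with *miR-139-3p*. *CFB*, factor B, the substrate of factor D, was dim at 11.5, 6.02 and 13.4, lower with *miR-139-5p* at -0.86 and within the threshold at 0.43 with *miR-139-3p*. *C1R* and *C1S*, the neighbouring genes of the classical pathway proteases on chromosome 12, differed in their *miR-139-3p* values. *C1R* had -0.74 (SD 0.09 over 2 probes) and *C1S* 0.09 (SD 0.01), while with *miR-139-5p* they had -0.57 and -0.77. *CFI*, factor I, which cleaves C3b, was lower with *miR-139-3p* at -0.88 and at 0.11 with *miR-139-5p*.

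Higher values were found for *C2* and *C8G*. *C2*, the classical pathway protease homologous to factor B, had signals of 24.2 in mock, 17.8 after *miR-139-5p* and 44.2 after *miR-139-3p*, with a 2.11-fold higher level with *miR-139-3p* than in mock and a log2 difference of -0.37 with *miR-139-5p*. *C8G*, the gamma chain of C8 in the pore, had 73.4, 87.8 and 432 in its brighter probe and 20.2, 18.3 and 60.3 in the other. It was the highest measured member with *miR-139-3p*, at 2.27 (SD 0.69 over 2 probes), and lay at 0.13 (SD 0.29) with *miR-139-5p*. Both probes put the *miR-139-3p* array far above the other arrays, although they differed in size.

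Of the 4 complement regulators with a value, 2 were higher and 1 was lower than mock after *miR-139-3p* transfection, beside 26.5% and 27.9% of all genes. *CD59*, which blocks the pore, had signals of 49.8 in mock, 77.0 after *miR-139-5p* and 145 after *miR-139-3p*, and was the only member higher in both comparisons, at 0.70 and 1.75, although with normexp it lay inside the threshold at 0.39 after *miR-139-5p*. *CD46*, a cofactor for factor I, lay at 0.43 with *miR-139-5p* and just past the threshold at 0.53 with *miR-139-3p*, which became 0.33 without scaling and 0.18 with normexp. *CD55*, which dissociates convertases, was within 0.5 in both, at 0.48 and -0.29, and lay at -0.76 between the miRNA arrays. *C4BPA*, the alpha chain of the soluble C4b-binding protein, had signals of 52.6, 40.7 and 16.3 and was lower with *miR-139-3p* at -1.48, or just inside the threshold at -0.48 with normexp, with -0.29 for *miR-139-5p*. Of the coagulation factors other than *F2* and *F10*, *PROS1* (protein S, an anticoagulant cofactor) lay at 0.58 with *miR-139-3p* (SD 0.07 over 2 probes) and 0.25 with *miR-139-5p*. The first was inside the threshold in 4 other settings, at 0.43 with quantile normalization, 0.42 in the deposited log2 values, 0.38 without scaling and 0.29 with normexp. *F12*, the factor that starts contact activation, had signals of 851, 737 and 749 and stayed within 0.5 in all 3 comparisons.

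Between the miRNA arrays, which needs no mock array, 15 of the 34 members with a value were lower with *miR-139-3p* than with *miR-139-5p* and 12 were higher, 44.1% and 35.3%, with 2 and 6 of them as bounds. Of all 15428 genes with a value, 27.9% were lower and 26.4% higher. The median over 26 measured members was -0.50, beside -0.09 over all measured genes. Lowest of those measured on both arrays were *FGB* at -2.63, *FGA* at -2.34, *F2* at -2.24, *CP* at -2.05, *APOH* at -1.83, *C5* at -1.66 and *FGG* at -1.58. *SERPINA3* followed at -1.35 (SD 0.92 over 3 probes), *C4BPA* at -1.18 and *SLPI* at -1.14. Highest among those measured on both arrays were *C8G* at 2.14, *C2* at 1.45, *CFB* at 1.29, *CD59* at 1.05, *C3* at 1.04 and *C1S* at 0.87. Of the 9 complement components and proteases with a value, 5 were higher and 2 lower between the miRNA arrays. With normexp *CFB*, *C1S* and *CFI* lay inside the threshold, at 0.19, 0.43 and -0.10, as did *C4BPA* at -0.31.

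The calls of dim members depended on the background correction. With the normexp background correction and an offset of 50, which draws dim signals together, 11 members stayed lower and 2 stayed higher after *miR-139-3p* transfection. These are 32.4% and 5.88% of the members with a value, beside 19.0% and 10.1% of all genes under the same correction. The 11 were *LCN2*, *SLPI*, *APOH*, *FGA*, *FGB*, *FGG*, *F2*, *C3*, *C5*, *CFD* and *C1R*, and the 2 were *C8G* and *CD59*. After *miR-139-5p* transfection the same correction left 5 lower and 3 higher, 17.2% and 10.3% of the members, beside 4.23% and 3.47% of all genes. Scaling to the E1A spike-in probes moved the balance for *miR-139-5p* to 7 lower and 11 higher, beside 9 and 8, and all genes moved in the same direction, to 8.03% lower and 16.4% higher.

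Genes of the same pathways outside the 47 were counted from lists of the same kind, to be read beside shares of all genes after *miR-139-3p* transfection of 27.9% lower and 26.5% higher. Of 12 other complement genes with a value, 3 were lower and 7 higher than mock with *miR-139-3p*, 3 of the 7 as bounds. *C5AR1*, the receptor of the C5a fragment, lay at 1.62 and *C3AR1*, that of C3a, at 1.57. Of 13 other coagulation genes, 8 were lower and 3 higher, with a median of -0.80 over the 13. The vitamin K enzymes *VKORC1* and *GGCX*, which serve the carboxylation of prothrombin, factor X and protein S, lay at -2.64 and -1.27. *SERPINE2*, a thrombin inhibitor, lay at -2.60 and *THBD*, thrombomodulin, the thrombin receptor that turns on protein C, at -1.58. *TFPI*, the inhibitor of the tissue factor pathway, was higher with both miRNAs, at 1.69 with *miR-139-3p* (SD 0.90 over 2 probes) against 1.53 with *miR-139-5p* (SD 0.03). *F2RL1*, a protease-activated receptor, lay at -0.96 with *miR-139-3p* against 1.60 with *miR-139-5p*.

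Of 12 other acute-phase genes with a value, 5 lay lower than mock and 4 lay higher after *miR-139-3p* transfection, beside 27.9% and 26.5% of all genes. *RBP4*, the retinol carrier that travels with transthyretin, lay at -2.86, and *APOE*, an apolipoprotein, at 2.51. With *miR-139-5p* these 2 lay at -0.92 and -0.76. *HAMP*, hepcidin, which limits iron export, lay at 1.43 with *miR-139-3p* and *ITIH4*, an inter-alpha-trypsin inhibitor chain, at 1.54.

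The receptors and factors that signal to acute-phase genes were listed as well, and 30 of the 34 had a value. With *miR-139-3p*, 14 lay lower and 5 higher, and the median over the 27 measured was -0.41, beside 27.9% and 26.5% of all genes and their median of -0.09. After *miR-139-5p* transfection, 4 lay lower and 9 higher, and the median was 0.22, beside 12.3%, 10.7% and 0.00 over all genes. *IL6R*, the interleukin-6 receptor, lay at -0.83 with *miR-139-3p* (SD 0.70 over 2 probes) against 1.14 with *miR-139-5p* (SD 0.93). *IL1RAP*, the accessory chain of the interleukin-1 receptor, lay at 1.19 with *miR-139-5p* (SD 0.91 over 2 probes) and at -2.19 between the miRNA arrays (SD 0.03). The hepatic and endodermal factors *FOXA3* and *FOXA2* lay at -1.67 and -1.24 with *miR-139-3p*. Of the NF-kB genes listed, *TNFAIP3*, *NFKB2*, *RELB* and *NFKBIA* were higher with *miR-139-3p*, at 3.18, 2.83, 1.78 and 1.60. *NFKB1*, *NFKBIZ* and *RELA* stayed within 0.5 at 0.30, -0.16 and -0.41, and *ZC3H12A*, an RNase of the same pathway, lay at -1.14. With *miR-139-5p*, *TNFAIP3*, *NFKB2* and *RELB* lay at 1.12, 0.94 and 0.67, and *NFKBIA* stayed within 0.5 at 0.20.

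Promoters are shown for *LCN2*, as the member farthest from mock, for the fibrinogen genes, as neighbours that differed in the same direction, and for *SAA4*, a serum amyloid gene not above background. The fibrinogen promoters were added after their values were seen. Each is the stretch of 250 bases before a RefSeq gene start (GRCh38.p14), written 5′ to 3′ on the gene's strand, and capitals mark matches to any of 3 motifs on either strand: TTNNGNAA for C/EBP, TTCNNNGAA for STAT and GGNNTTTCC for NF-kB factors, which may overlap.
LCN2, chr9:128149203-128149452, plus strand: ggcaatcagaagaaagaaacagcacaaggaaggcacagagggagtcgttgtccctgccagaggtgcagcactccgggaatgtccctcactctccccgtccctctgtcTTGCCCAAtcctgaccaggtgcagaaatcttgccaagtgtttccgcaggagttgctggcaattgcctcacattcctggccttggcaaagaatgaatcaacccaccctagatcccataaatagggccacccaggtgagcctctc
FGB, chr4:154562730-154562979, plus strand: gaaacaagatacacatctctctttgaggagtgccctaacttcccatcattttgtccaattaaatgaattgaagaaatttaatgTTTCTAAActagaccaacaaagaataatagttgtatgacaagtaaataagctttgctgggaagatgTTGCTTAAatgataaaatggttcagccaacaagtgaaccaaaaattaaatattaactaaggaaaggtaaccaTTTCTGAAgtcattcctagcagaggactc
FGA, chr4:154590743-154590992, minus strand: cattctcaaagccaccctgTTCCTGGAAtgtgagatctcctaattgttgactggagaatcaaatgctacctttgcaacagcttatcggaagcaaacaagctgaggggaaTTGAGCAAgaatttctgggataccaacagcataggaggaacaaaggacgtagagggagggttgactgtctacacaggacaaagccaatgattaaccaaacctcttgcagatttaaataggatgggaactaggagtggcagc
FGG, chr4:154612657-154612906, minus strand: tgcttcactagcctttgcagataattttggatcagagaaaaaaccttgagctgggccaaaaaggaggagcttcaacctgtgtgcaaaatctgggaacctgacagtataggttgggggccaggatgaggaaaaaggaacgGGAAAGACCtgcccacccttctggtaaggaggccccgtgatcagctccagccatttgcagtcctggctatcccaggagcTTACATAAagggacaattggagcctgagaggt
SAA4, chr11:18236803-18237052, minus strand: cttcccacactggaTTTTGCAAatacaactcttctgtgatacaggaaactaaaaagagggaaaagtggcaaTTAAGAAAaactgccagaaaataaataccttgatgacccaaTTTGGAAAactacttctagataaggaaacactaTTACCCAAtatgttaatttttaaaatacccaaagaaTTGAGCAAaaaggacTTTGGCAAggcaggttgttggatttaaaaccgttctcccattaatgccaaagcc
The *FGA* promoter held TTCCTGGAA, a match to the STAT motif, starting 231 bases before the gene start and a C/EBP match at 141 bases. The *FGB* promoter held C/EBP matches at 167, 101 and 29 bases. *FGG* had a C/EBP match at 32 bases and GGAAAGACC, an NF-kB match on the other strand, at 111 bases. *LCN2* had 1 match, to C/EBP, at 143 bases, and *SAA4* had 6 C/EBP matches. Each motif is a single pattern of letters, so a stretch that differs from it is not marked. A promoter without a match can still hold a site. In windows of 300 bases, which reach 50 bases past the start, 45 promoters of 32 members were listed. The C/EBP motif was in 29 of the 45 (64.4%) and in 31.4% of the 22199 promoters of protein-coding genes. The STAT motif was in 10 (22.2%, against 6.79%) and the NF-kB motif in 5 (11.1%, against 6.46%). Promoters of the same gene can overlap, and a match is a string of letters, not a measured binding site. Base composition was not matched between the sets.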

How the data were processed

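Gene expression was measured in total RNA of A549 cells with 1 array of 1 colour (Cy3) for each of 3 conditions. Spot intensity values, deposited by the authors, were read by Agilent Feature Extraction 12.1.1.1 with background subtraction and without scaling between arrays. The authors also deposited log2 values per probe. The deposited log2 values matched log2 signals after quantile normalization (Pearson r = 0.999999 over probes), and the median of each array was 2.21. Their scale is thus log2 and they are not centred on a gene or a reference.

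Spots marked as outliers in signal or background (614 in mock, 935 with *miR-139-5p*, 1526 with *miR-139-3p*) and control spots were removed before repeat spots of a probe were averaged. The log2 of the 75th percentile (93.6, 88.9 and 81.0) was subtracted. A probe counted as well above background where at least 50% of its spots did. Of 25277 probes with an NM accession, 24751 matched the annotation of GRCh38.p14. The arrays were designed on another build, so coordinates are given for RefSeq sequences only. *CENPM* was not analysed here.

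The 47 genes, their roles and the other lists were chosen from general knowledge with earlier results of these arrays known. All 47 are accounted for. Other genes are named where they lay past 1 in a comparison, except *C4B*, *NFKB1*, *NFKBIZ*, *RELA* and the cell type markers. The 3 comparisons used no test. There were 11 alternatives, for the scaling, background correction, filters, probe choice, source of values and threshold. Low signals set the depth: dim probes carry the widest error. On simulated data for *miR-139-3p* against mock, 197 of 199 changed genes were recovered among 14949, which checks the computation only, since no spread between cultures or slides was simulated. Python 3.11.15, numpy 2.4.6, pandas 2.3.3, matplotlib 3.10.9, R 4.3.3 and limma 3.58.1 (normexp) were used.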

Additional observations from a re-analysis of the deposited data

Results flagged for a closer look

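For 6 members the *miR-139-3p* and *miR-139-5p* arrays lay on opposite sides of mock, past the threshold in each case. The difference between the miRNA arrays on the log2 scale was -2.63 for *FGB*, -2.34 for *FGA*, -2.24 for *F2*, -2.08 for *TTR*, -2.05 for *CP* and -1.66 for *C5*. The *TTR* value is a bound. With the normexp background correction *CP*, *F2*, *FGA* and *TTR* lay inside the threshold with *miR-139-5p*, at 0.43, 0.40, 0.29 and 0.24. *CP* and *TTR* then also lay inside it with *miR-139-3p*, at -0.26 and -0.06, and *TTR* between the miRNA arrays, at -0.30. *FGA* lay at or inside it in 6 of the alternatives with this threshold. These differences were not tested, since each condition had 1 array, and slide and transfection cannot be told apart.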

How the results depend on the processing

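Over the alternatives, 646 of 711 values past 0.5 stayed past it in the same direction and 65 lay inside it, of which 1 had the other sign: *SERPING1* with *miR-139-3p*, -0.10 without the filter on dim probes. With normexp, members higher and lower were 2 and 11 for *miR-139-3p*. They were 3 and 5 for *miR-139-5p*, and 4 were higher between the miRNA arrays (11.8% of the members, beside 10.3% of all genes). *CP* then lay at -0.26, 0.43 and -0.69 in the comparisons of *miR-139-3p* with mock, *miR-139-5p* with mock and *miR-139-3p* with *miR-139-5p*, and *LCN2* at -1.37 with *miR-139-3p* against -1.34 with *miR-139-5p*. The offset draws dim signals together by construction. With quantile normalization, *CP* lay at -1.46 with *miR-139-3p* and -2.37 between the miRNA arrays, and *LCN2* at -3.70, -3.04 and -0.66. With the deposited log2 values, *CP* lay at -1.47 and -2.37, and *LCN2* at -3.70, -3.03 and -0.67. The brightest *CP* probe gave 0.70 with *miR-139-5p* and -1.74 between the miRNA arrays. With probes well above background on all 3 arrays, 5 members were higher with *miR-139-3p* and 6 between the miRNA arrays, as bounds drop out (19.2% and 23.1%, beside 22.9% and 23.1% of all genes). Without the filter on dim probes, 13 were higher and 14 lower with *miR-139-5p* (27.7% and 29.8%, beside 11.95% and 11.96% of all genes). At a threshold of 1, 7 were higher and 12 lower with *miR-139-3p* (20.6% and 35.3%, beside 12.3% and 11.8% of all genes), and 0 higher and 4 lower with *miR-139-5p* (0% and 13.3%, beside 1.92% and 2.38%). Elsewhere the cause was not tested. Scaling moved the median of all genes from -0.09 to -0.30 with *miR-139-3p* without scaling and to 0.05 with the percentile over detected probes, and from 0.00 to 0.12 with *miR-139-5p* and spike-in scaling. No paired analysis was possible because each condition had 1 array. Low signal over background limits the 12 members with no value and the dim members most.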
